A study of Homo sapiens with 8 samples.

Results

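The genes described here are 6 for which loss of cleavage factor Im (CFIm) is known to shorten the 3′ untranslated region (3′ UTR): CCND1, VMA21, TIMP2, PAK1, PAK2 and DICER1. They were chosen by name from that knowledge, with earlier results of these data known, out of 78932 gene identifiers in the count tables. All 6 were among the 12618 genes with enough reads to test. RNA came from HCT116, a line grown from a human colorectal carcinoma, with a degradation tag added to NUDT21, the small CFIm subunit. All cells received JTE-607, which inhibits the CPSF73 endonuclease that makes the cut before polyadenylation, together with the solvent DMSO in 4 libraries (DMSO+JTE-607) or with dTAGV1, a compound that brings the tagged protein to a ubiquitin ligase for degradation, in 4 libraries (dTAGV1+JTE-607). The comparison therefore shows what differs upon dTAGV1 while cleavage is inhibited, and holds no cells free of JTE-607. Doses, treatment times, and whether the tagged line is a single clone are not given in the sources used here. The labels number 4 replicates per group without saying that they were separate cultures, so p-values measure the spread between these libraries, which may be technical.

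CFIm binds UGUA sequences in nascent RNA, mostly upstream of poly(A) sites, and promotes cleavage at sites that it flanks. In many genes those sites lie far downstream, so that loss of CFIm moves cleavage to an upstream site and leaves a shorter 3′ UTR with the coding sequence unchanged. The libraries were made by priming on poly(A) tails, so reads should mostly lie near a transcript's 3′ end, though priming inside transcripts was not tested. A gene's count sums reads from all its poly(A) sites that lie in annotated exons, and by itself it does not tell a long 3′ UTR from a short one.

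The 3′ ends themselves are shown first, because the results for CCND1 and TIMP2 turn on where in them the reads lay. Sequences and 3′ UTRs are those of GENCODE 29 on GRCh38, taken from the protein-coding transcript that reaches farthest downstream, and are written as DNA. Capitals mark the last poly(A) signal (AATAAA or ATTAAA, searched on the transcript strand only in the last 50 bases), which 4 of the 6 genes had.
CCND1, chr11:69654442-69654471, plus strand: tgaaagtctagaAATAAAactggtaaaacc
VMA21, chrX:151409328-151409357, plus strand: ccatctgatgtcATTAAAaaaagtgtttgt
TIMP2, chr17:78852983-78853012, minus strand: cggtccgtggacAATAAAcagtattatcaa
DICER1, chr14:95086231-95086260, minus strand: aagtaaatctccAATAAAgttatcgtctgt
TIMP2 also has a signal close to its stop codon, 94 bases into the 3′ UTR, and it is the first in that UTR.
TIMP2, upstream signal, chr17:78855556-78855585, minus strand: ggaaacagcatgAATAAAacactcatccca
In the next pair, capitals mark the TGTA, the DNA form of the CFIm motif, that lies within 100 bases of the annotated end of CCND1 and of TIMP2.
CCND1, chr11:69654388-69654417, plus strand: cccagcaccaacaTGTAaccggcatgtttc
TIMP2, chr17:78853019-78853048, minus strand: gtctctgatgcttTGTAtcattcttgagca

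The annotated 3′ UTRs measured 3192 bases in CCND1, 4306 in VMA21, 2690 in TIMP2, 1567 in PAK1, 4242 in PAK2 and 4270 in DICER1, each in a single exon. All 6 exceeded the median of 1279 bases over the 10603 tested genes with an annotated 3′ UTR. TGTA, searched on the transcript strand with overlaps allowed, occurred 22 times in CCND1, 37 in VMA21, 11 in TIMP2, 6 in PAK1, 21 in PAK2 and 26 in DICER1. Per 1000 bases that density was 3.83 in PAK1, the lowest, and 8.59 in VMA21, the highest, against a median of 5.04 over the tested genes. TGTA lay in the last 100 bases of 5 of the 6 genes, all but PAK2, and in 55.7% of tested genes. A signal in the last 50 bases was present in 79.6% of tested genes. CCND1 held AATAAA once, at its annotated end, while TIMP2 held it 4 times. A match describes the sequence and does not show that a site is used.

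**Figure D1:**
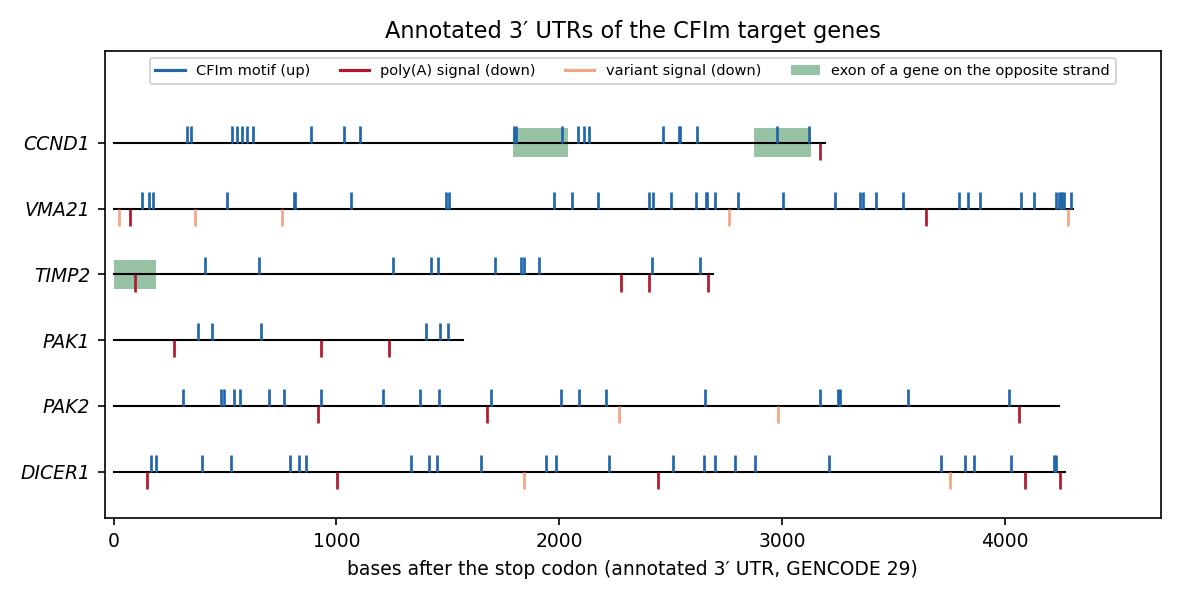
Annotated 3′ UTR of each gene, in bases after the stop codon, with TGTA (ticks up), AATAAA and ATTAAA (ticks down) and the exons of genes on the opposite strand (shaded). The shaded stretches of CCND1 lie in the downstream part of its UTR, up to base 3128 of 3192, and that of TIMP2 covers the first 189 bases, where the first AATAAA begins at base 94.

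Library quality is given in brief. Libraries held 8649238 to 9977205 reads, of which 3447842 to 4291256 were counted to genes on the strand of the gene. Unmapped reads made up 27.7% to 28.9% in the DMSO libraries and 30.3%, 29.9%, 24.9% and 20.4% in dTAGV1 replicates 1 to 4. Counts are given as CPM, counts per 1000000 after TMM scaling. The epithelial markers EPCAM, KRT8, KRT18, CDH1 and CDX2 were all measured at group means of 29.7 to 408 CPM. KRT18 fell by 0.60 and EPCAM rose by 0.28 (edgeR, Benjamini-Hochberg adjusted p = 6.02e-07 and 0.00282), and the other 3 did not pass. By contrast COL1A2, PTPRC, CD3E, CD68 and PECAM1, markers of other cells, had at most 7 counts in any library. VIM and COL1A1, also in that list, had 11.7 and 17.3 CPM with DMSO and 10.98 and 13.8 CPM with dTAGV1, and neither passed the test. NUDT21, the tagged gene, had 32.2 ± 2.81 CPM with DMSO and 8.25 ± 2.62 CPM with dTAGV1 (SD, n = 4 each), and its protein was not measured. CPSF6 and CPSF7, the other CFIm subunits, fell by 0.63 ± 0.08 and 0.32 ± 0.09 on the log2 scale (± SE). In bulk RNA, fewer cells expressing a gene and less RNA per cell cannot be told apart.

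Among the 6 genes, VMA21 and PAK2 rose upon dTAGV1, CCND1 and PAK1 fell, and TIMP2 and DICER1 did not pass the test. Thus 4 of 6 passed, where 57.9% of all tested genes did (quasi-likelihood test of edgeR, p adjusted over all tested genes by Benjamini-Hochberg, threshold 0.05). By direction 29.4% of tested genes were higher and 28.5% lower. The median log2 fold change of the 6 was 0.00 against 0.01 over all tested genes, and the median absolute change was 0.35 against 0.42. In counts on the strand of the gene, the 6 thus showed no common direction, and the share that passed was near the background. With both strands counted together all 6 passed, where 7205 of 12832 tested genes did. In that count CCND1, TIMP2, PAK1 and DICER1 were lower, and VMA21 and PAK2 were higher.

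CCND1 encodes cyclin D1, which activates CDK4 and CDK6 in the passage through G1 (ENSG00000110092; GRCh38 chromosome 11, 69641087 to 69654474, plus strand). Its levels with DMSO were 633, 606, 715 and 720 CPM in replicates 1 to 4, and with dTAGV1 they were 357, 438, 402 and 409 CPM. All dTAGV1 libraries lay below every DMSO library, and the groups did not overlap in 50.9% of all tested genes. The group means were 669 ± 57.6 and 402 ± 33.5 CPM (SD, n = 4 each). On the log2 scale CCND1 changed by -0.74 ± 0.08 (SE; edgeR, Benjamini-Hochberg adjusted p = 9.62e-09), or 0.601-fold (95% interval 0.539 to 0.669). When reads of both strands were counted together, the fold change of CCND1 shrank to -0.41, for a reason that lies in the position of its reads, described below.

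VMA21 encodes an assembly factor of the vacuolar proton pump, the V-ATPase (ENSG00000160131; chromosome X, 151396515 to 151409364, plus strand). It was measured at 111, 104, 127 and 102 CPM in the DMSO libraries and at 125, 151, 169 and 170 CPM in the dTAGV1 libraries. The groups overlapped, since dTAGV1 replicate 1 lay just below DMSO replicate 3. Within dTAGV1, replicates 1 and 2 were also the libraries with the most unmapped reads, whose part in this spread was not tested. The log2 fold change was 0.47 ± 0.09 (SE; edgeR, Benjamini-Hochberg adjusted p = 0.00016), which made VMA21 the gene with the largest increase of the 6.

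PAK1 and PAK2 encode group I p21-activated kinases, effectors of RAC1 and CDC42 that act on the actin cytoskeleton, and they moved in opposite directions. PAK1 (ENSG00000149269; chromosome 11, 77321707 to 77474635, minus strand) had 132, 108, 127 and 114 CPM with DMSO and 102, 76.4, 87.8 and 88.5 CPM with dTAGV1. PAK1 fell by 0.44 on the log2 scale ± 0.09 (SE; edgeR, Benjamini-Hochberg adjusted p = 0.000261). PAK2 (ENSG00000180370; chromosome 3, 196739857 to 196832647, plus strand) had 301, 295, 287 and 290 CPM with DMSO and 377, 364, 330 and 331 CPM with dTAGV1. PAK2 rose by 0.26 ± 0.07 (SE; edgeR, Benjamini-Hochberg adjusted p = 0.0025). Neither gene's groups overlapped, which was so for 50.9% of tested genes. Within libraries, which removes any effect of scaling, the log2 ratio of PAK1 to PAK2 went from -1.29 ± 0.13 to -1.99 ± 0.18 (SD, n = 4 each). That difference of -0.70 had the smallest p that 4 libraries against 4 allow (2-sided exact permutation test p = 0.0286, adjusted over 4 ratios p = 0.0286).

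TIMP2 encodes a secreted inhibitor of matrix metalloproteinases (ENSG00000035862; chromosome 17, 78852977 to 78925387, minus strand). Its levels were 245, 202, 226 and 223 CPM with DMSO and 240, 218, 268 and 272 CPM with dTAGV1. The groups overlapped, and the log2 fold change of 0.16 ± 0.08 (SE) did not pass (edgeR, Benjamini-Hochberg adjusted p = 0.0939). Its 95% interval ran from -0.01 to 0.32. TIMP2 passed when DMSO replicate 1 was left out (0.20, edgeR adjusted p = 0.0469) or dTAGV1 replicate 2 (0.20, edgeR adjusted p = 0.0354).

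DICER1 encodes the ribonuclease that cuts microRNA precursors (ENSG00000100697; chromosome 14, 95086228 to 95158010, minus strand). It had 137, 128, 137 and 134 CPM with DMSO and 126, 119, 117 and 118 CPM with dTAGV1. The groups did not overlap, as in 50.9% of tested genes. Even so, the log2 fold change of -0.16 ± 0.07 (SE) did not pass over all tested genes (edgeR, Benjamini-Hochberg adjusted p = 0.0723). Its 95% interval, which is not adjusted for the number of genes, ran from -0.31 to -0.0045. DICER1 passed without dTAGV1 replicate 1 (-0.19, edgeR adjusted p = 0.0408), with library-size scaling (-0.23, edgeR adjusted p = 0.0101), among genes averaging 100 counts or more (-0.18, edgeR adjusted p = 0.0333) and with both strands counted together (-0.19, edgeR adjusted p = 0.0352).

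**Figure D2:**
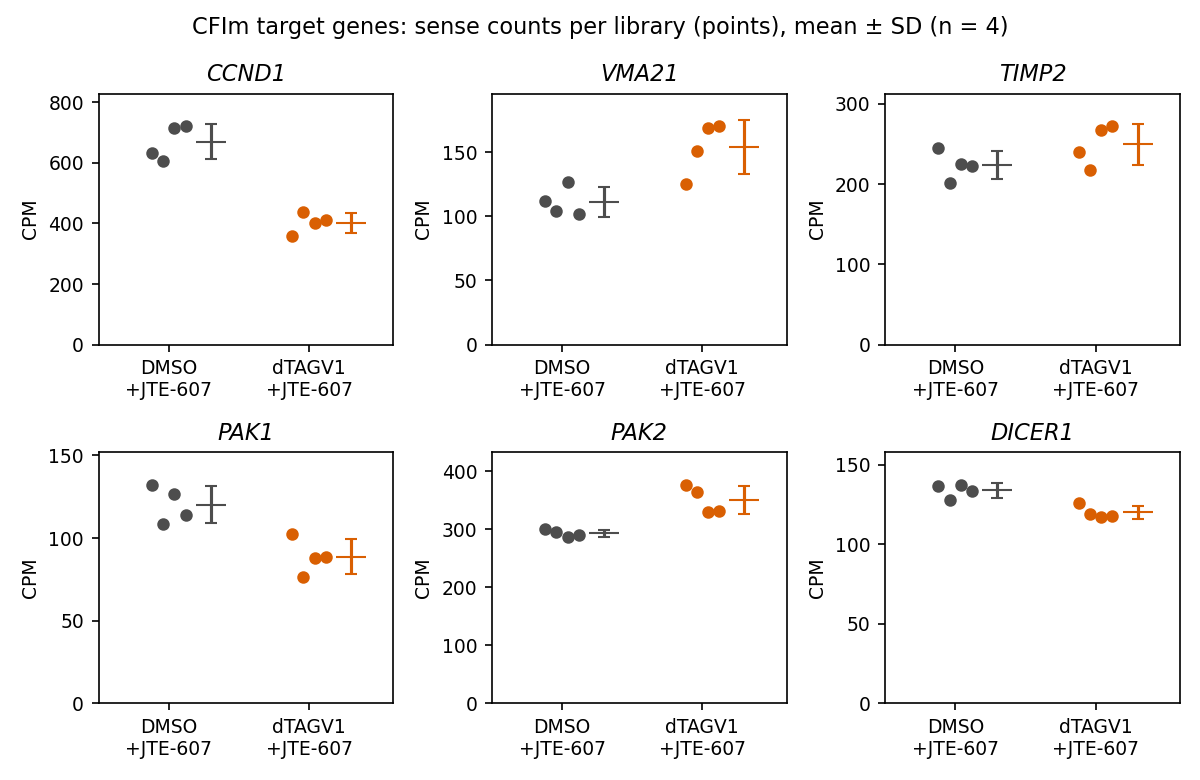
CPM of the 6 genes in each library (points, left to right replicates 1 to 4), with the mean and SD of each group (n = 4) beside them, on axes that start at 0. CCND1 shows the widest separation, from 606 CPM or more with DMSO to 438 CPM or less with dTAGV1, while the groups of TIMP2 and VMA21 overlap.

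The tables also hold information on where in a gene its reads lay. Reads that lie on exons of 2 genes on opposite strands are given to the gene when strand is used, and to neither when it is not. The difference between these counts therefore gives the reads of a gene that lie on a stretch shared with a gene on the opposite strand. CCND1 and TIMP2 each have such a stretch in their 3′ UTR, and in both the share of reads on it changed upon dTAGV1. This measure was chosen after its values were seen.

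In CCND1 the stretch was shared with LTO1, a minus-strand gene that ends inside the CCND1 3′ UTR. In GENCODE 29 the shared exons cover bases 1794 to 2037 and 2876 to 3128 after the stop codon, thus the downstream part of the UTR up to shortly before the AATAAA printed above. Opposite-strand counts were tested in 3324 genes, of which 48.4% passed. They were scaled by TMM factors of their own, so their fold changes differ from those of the CPM values, which use the factors of the same-strand counts. The opposite-strand count of LTO1 matched the reads so derived to within 1 read in every library, which ties them to LTO1 exons. Counts on the stretch were 839, 895, 980 and 1118 reads in the DMSO libraries, and 192, 242, 273 and 422 reads in the dTAGV1 libraries. They made up 36.2%, 35.6%, 36.6% and 38.4% of the reads of CCND1 with DMSO. With dTAGV1 the shares were 15.3%, 16.7%, 19.99% and 24.4%, all below every DMSO library. Among the 833 genes whose shares were compared, the groups did not overlap in 28.2%. Within dTAGV1 the libraries with the most unmapped reads, replicates 1 and 2, had the lowest shares, and replicate 4, with the fewest, had the highest. The part of unmapped reads in this spread was not tested. By counting error alone the 95% binomial intervals (Clopper-Pearson) ran from 33.7% to 40.2% over the DMSO libraries and from 13.3% to 26.5% over the dTAGV1 libraries. The mean share went from 36.7% ± 1.20 to 19.1% ± 4.05 (SD, n = 4 each), a change in log2 odds of -1.32 ± 0.14 (SE; limma over 833 genes, Benjamini-Hochberg adjusted p = 1.37e-06).

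Expressed as levels, CCND1 reads on the downstream stretch went from 246 ± 28.0 to 76.9 ± 18.8 CPM, and its other reads from 423 ± 30.5 to 325 ± 27.8 CPM (SD, n = 4 each). The stretch thus accounted for 169 of the 267 CPM by which CCND1 was lower, or 63.2%. As the opposite-strand count of LTO1, the same reads had a log2 fold change of -1.80 ± 0.16 (SE; edgeR on opposite-strand counts, Benjamini-Hochberg adjusted p = 2.25e-07), and of -1.67 with the factors of the same-strand counts. With both strands counted together, which leaves the stretch out, CCND1 fell by 0.41 ± 0.08 (SE; edgeR, Benjamini-Hochberg adjusted p = 3.92e-05). LTO1's own reads, on its own strand, had a log2 fold change of -0.14 (edgeR, Benjamini-Hochberg adjusted p = 0.372). The other reads of CCND1 include any that lie between the shared exons or after base 3128 of its UTR. The split therefore does not divide downstream from upstream poly(A) sites.

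In TIMP2 the stretch lay at the other end of the UTR. It was shared with AC022966.1, a noncoding gene on the plus strand (chromosome 17, 78855478 to 78855844) that covers the end of the coding sequence and the first 189 bases after the stop codon. The upstream AATAAA printed above lies inside it. AC022966.1 had 0 reads on its own strand in all 8 libraries, and its opposite-strand count matched the derived reads to within 1. TIMP2 reads on the stretch numbered 259, 185, 203 and 205 with DMSO and 540, 472, 587 and 719 with dTAGV1. As shares of TIMP2 these were 28.8%, 22.1%, 24.0% and 22.8%, and 63.8%, 65.4%, 64.6% and 62.5%. The groups were far apart, with binomial intervals (Clopper-Pearson, 95%) that reached 31.9% at most with DMSO and 59.6% at least with dTAGV1. The mean share rose from 24.4% ± 3.04 to 64.0% ± 1.24 (SD, n = 4 each), a change in log2 odds of 2.47 ± 0.12 (SE; limma, Benjamini-Hochberg adjusted p = 9.71e-12). By the size of this change TIMP2 ranked 20 among 833 genes, and CCND1 ranked 78.

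The gene-level count of TIMP2 combined movements in both directions. Reads on the stretch near the stop codon went from 55.1 ± 11.2 to 160 ± 14.4 CPM, while its other reads went from 169 ± 7.84 to 89.9 ± 11.4 CPM (SD, n = 4 each). As the opposite-strand count of AC022966.1, the former had a log2 fold change of 1.41 ± 0.12 (SE; edgeR on opposite-strand counts, Benjamini-Hochberg adjusted p = 4.12e-11), and of 1.54 with the factors of the same-strand counts. With both strands counted together, which leaves that stretch out, TIMP2 had a log2 fold change of -0.93 ± 0.09 (SE; edgeR, Benjamini-Hochberg adjusted p = 8.24e-10). TIMP2 would thus be called lower or not changed depending on the column of the tables that is read.

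**Figure D3:**
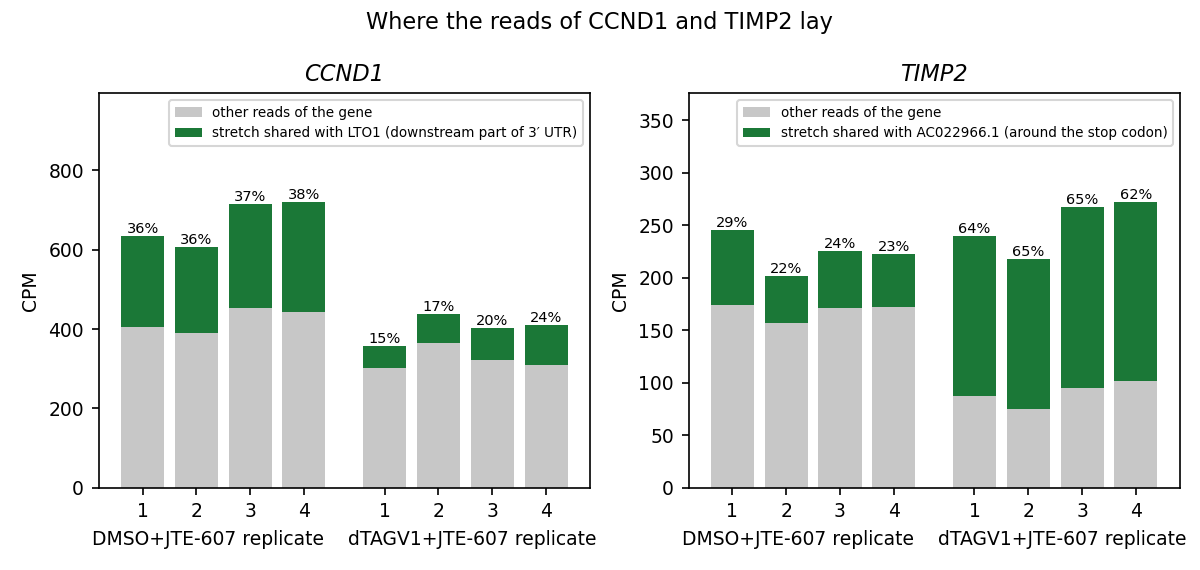
CPM of CCND1 and TIMP2 in each library, split into reads on the stretch shared with an opposite-strand gene (green, with its percent of the gene's reads above the bar) and all other reads (grey). The green part is 36% to 38% of CCND1 reads with DMSO and 15% to 24% with dTAGV1, and 22% to 29% against 62% to 65% in TIMP2.

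These shares were set against all 833 genes with at least 20 reads on average on and off such a stretch. Of these, 27.1% had an adjusted p under 0.05 by limma, 12.7% with a higher and 14.4% with a lower share. In 28.2% the shares of the groups did not overlap. PAK1 and PAK2 were among the 833 but had few reads on a stretch. In PAK1 it lay at the 5′ end of the gene, shared with AP003680.1, and its mean share went from 6.51% ± 1.88 to 4.43% ± 2.08 (SD, n = 4 each; limma, Benjamini-Hochberg adjusted p = 0.232). The share did not pass, whereas the same reads as the opposite-strand count of AP003680.1, 5 to 38 per library, fell by 1.10 ± 0.30 (SE; edgeR on opposite-strand counts, Benjamini-Hochberg adjusted p = 0.00277), or by 0.97 with the factors of the same-strand counts, while PAK1 as a whole fell too. In PAK2 the share was 2.25% ± 0.26 and 2.98% ± 1.12 (SD, n = 4 each; limma, Benjamini-Hochberg adjusted p = 0.442). No GENCODE 29 gene on the opposite strand shares exons with PAK2, so its stretch comes from the authors' annotation and was not placed here. VMA21 and DICER1 had 0 reads on such a stretch, so the position of their reads was not measured. Exon borders are those of GENCODE 29, while the annotation release behind the counts is not given in the sources used here. Shares do not show single poly(A) sites, and priming inside transcripts was not tested.

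The partners of the 6 genes were taken from lists written from general knowledge. Each count below is to be read against the 57.9% of all tested genes that passed, 29.4% higher and 28.5% lower. Of 12 tested genes among 13 others that have been linked to CFIm in poly(A) site choice, 6 were higher, 3 lower and 3 did not pass, with a median log2 fold change of 0.24. IGF1R, the insulin-like growth factor 1 receptor, was at the top with 2.51, but it had only 2, 6, 2 and 3 counts with DMSO and 12, 16, 17 and 26 with dTAGV1. LAMC1, a laminin chain, rose by 1.21 on the log2 scale, with 193 ± 15.6 CPM in DMSO and 447 ± 16.8 CPM in dTAGV1 libraries (SD, n = 4 each). PSMB2, a proteasome subunit gene, fell by 0.30. PAPOLA, a poly(A) polymerase gene, had a log2 fold change of -0.01 (edgeR, Benjamini-Hochberg adjusted p = 0.904).

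Around CCND1, 4 of 13 tested genes of the D-type cyclin and RB module were higher and 6 lower. CDKN2B, which encodes an inhibitor of CDK4 and CDK6, was the highest of this list at 1.97 on the log2 scale, with 37.8 ± 2.88 CPM in DMSO and 148 ± 9.59 CPM in dTAGV1 libraries (SD, n = 4 each). E2F1, a transcription factor that RB restrains, had the lowest, with a fall from 14.5 ± 2.03 to 3.63 ± 0.67 CPM (SD, n = 4 each). CCND3, the related cyclin D3 gene, fell by 1.27 ± 0.14 (SE; edgeR, Benjamini-Hochberg adjusted p = 4.63e-08). CCND3 was the more reduced of the pair, and the log2 ratio of CCND1 to CCND3 rose by 0.55, from 4.06 ± 0.18 to 4.60 ± 0.24 (SD, n = 4 each; 2-sided exact permutation test p = 0.0286, adjusted p = 0.0286).

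Of 18 tested V-ATPase genes, 6 were higher, 3 lower and 9 did not pass, with a median log2 fold change of 0.16. The accessory subunit gene ATP6AP2 was the highest at 1.00, with 156 ± 17.6 CPM in DMSO and 313 ± 20.8 CPM in dTAGV1 libraries (SD, n = 4 each), and the related ATP6AP1 rose by 0.87. CCDC115, another assembly factor of the pump, rose by 0.42, and TMEM199, its partner in assembly, had a log2 fold change of 0.17 (edgeR, Benjamini-Hochberg adjusted p = 0.31). ATP6V0A2, a membrane-domain subunit gene, was the lowest and fell by 0.91.

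Only 5 of 10 genes in the list of TIMPs and membrane metalloproteinases had enough reads to test. TIMP1 rose by 0.72 (edgeR, Benjamini-Hochberg adjusted p = 1.22e-08), RECK, a membrane-anchored protease inhibitor gene, rose by 0.90, and TIMP3 fell by 1.69 from a low level of 8.38 ± 1.89 CPM (SD, n = 4). MMP14, the membrane protease that TIMP2 binds, had a log2 fold change of -0.10 (edgeR, Benjamini-Hochberg adjusted p = 0.694). The log2 ratio of TIMP2 to TIMP1 fell by 0.57, from 0.18 ± 0.09 to -0.39 ± 0.28 (SD, n = 4 each; 2-sided exact permutation test p = 0.0286, adjusted p = 0.0286).

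Among 13 tested PAK family members and partners, 1 was higher, 3 lower and 9 did not pass, so 4 of 13 passed where 57.9% of all tested genes did. NCK1, an adaptor that brings PAK to the membrane, rose by 0.46, and PAK6, a group II kinase gene, fell by 0.62. CFL1, which encodes cofilin, the actin-severing protein at the end of the PAK and LIM kinase pathway, fell by 0.37, and LIMK1 fell by 0.40. RAC1 and CDC42, which bind and activate PAK1 and PAK2, had log2 fold changes of -0.10 and 0.10 and did not pass (edgeR, Benjamini-Hochberg adjusted p = 0.207 and 0.554).

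Of 12 genes of microRNA processing and silencing, 2 were higher, 5 lower and 5 did not pass. TARBP2, the partner of DICER1 in precursor cleavage, was the lowest and fell by 0.75, while XPO5 fell by 0.51, DROSHA by 0.50, AGO2 by 0.46 and DGCR8 by 0.35. These encode, in turn, the exporter of precursors, the nuclease of the first cut, the slicing Argonaute and the partner of DROSHA. TNRC6A, a silencing scaffold gene, was the highest at 0.28 (edgeR, Benjamini-Hochberg adjusted p = 0.0155). Its call was lost in 5 alternatives, among them without DMSO replicate 2 (0.24) or without dTAGV1 replicate 1 or 2 (both 0.23). TNRC6B, the other gene of this list that was higher, rose by 0.23 (edgeR, Benjamini-Hochberg adjusted p = 0.00432). The log2 ratio of DICER1 to DROSHA rose by 0.34, from 0.73 ± 0.10 to 1.07 ± 0.12 (SD, n = 4 each; 2-sided exact permutation test p = 0.0286, adjusted p = 0.0286). All 4 ratios had adjusted exact p = 0.0571 when DMSO replicate 2, 3 or 4 was left out, and TIMP2 to TIMP1 also without DMSO replicate 1. With both strands counted together CCND1 to CCND3 differed by 0.90 and TIMP2 to TIMP1 by -1.64.

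**Figure D4:**
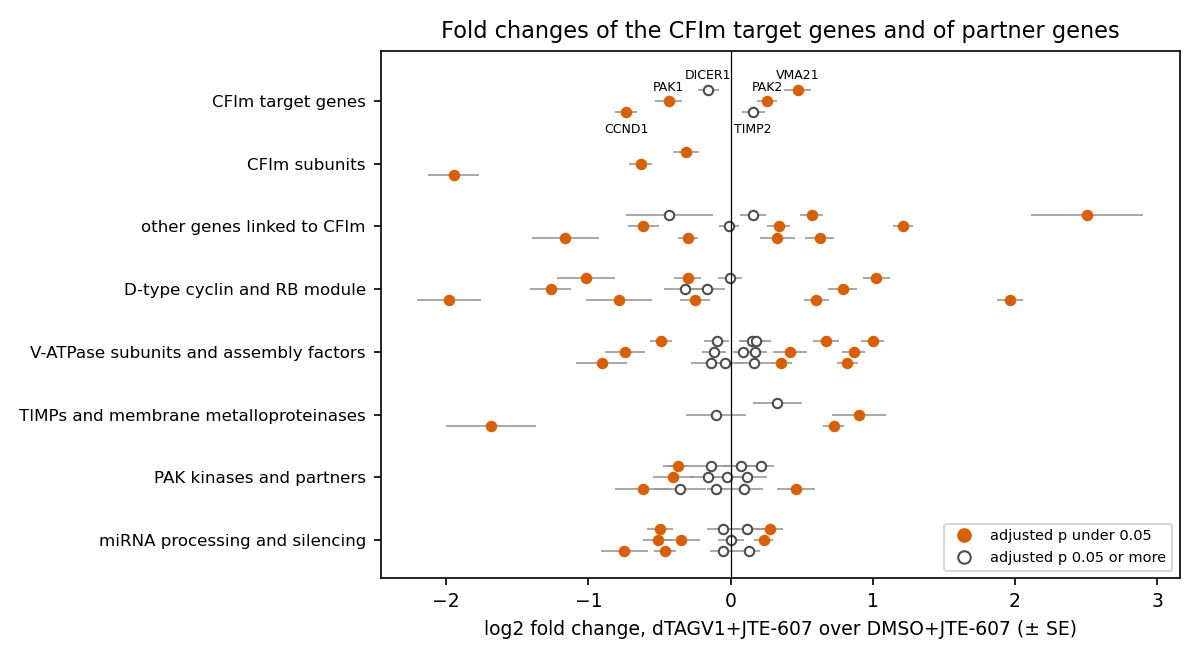
Log2 fold change (dTAGV1+JTE-607 over DMSO+JTE-607) with its SE for the 6 genes and for each tested gene of 7 partner lists, filled where the adjusted p was under 0.05. The 6 genes lie between -0.74 for CCND1 and 0.47 for VMA21, within the range of most partner lists.

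Across the 8 libraries, the log CPM of other genes was compared with that of each of the 6, among 9050 genes with a symbol and at least 10 CPM. The closest to CCND1 were TARBP2 (Pearson r = 0.993) and IFFO2 (r = 0.991), and those to VMA21 were TXNDC15 (r = 0.987) and ERO1A (r = 0.984). For TIMP2 they were RPL13 (r = 0.953) and LAMTOR5-AS1 (r = 0.947), and for PAK1 they were FKBP9 and ULK2 (both r = 0.984). TAPT1 and EIF5 were closest to PAK2 (r = 0.992 and 0.991), and IDH1 was closest to DICER1 (r = 0.981). These coefficients describe 8 points from 2 treatment groups, and correlations within a group were not computed.

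Genes downstream on the same strand were also read. USP36, 11536 bases beyond TIMP2, had a log2 fold change of -0.12 (edgeR, Benjamini-Hochberg adjusted p = 0.288). SENP5, 35209 bases beyond PAK2, fell by 0.61 and ANO1, 423828 bases beyond CCND1, fell by 1.69 (edgeR, Benjamini-Hochberg adjusted p = 0.000485 and 2.89e-10). GDPD4, PASD1 and GSC, the next protein-coding genes beyond PAK1, VMA21 and DICER1, had too few reads to test. On the same strand, CEP295NL overlaps TIMP2 and MIR3173 overlaps DICER1, and neither had enough reads to test.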

How the data were processed

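Poly(A) RNA of 8 HCT116 libraries was profiled with a forward 3′ end kit, per the labels' protocols. The authors deposited raw counts of reads per Ensembl gene, in 3 columns with the layout of STAR: strand ignored, same strand as the gene, and opposite strand. The submitters' processing notes name fastp, STAR, HTSeq, DESeq2 and GRCh38, with no roles; versions, annotation release and use of molecular identifiers are not given in the sources used here. PCR copies may be counted, which the binomial intervals of the shares do not allow for. Those intervals cover counting error only, while the intervals of fold changes rest on the spread between libraries.

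Counts on the strand of the gene were analysed. The 4 totals of reads given to no gene, 56.7% to 62.8% of reads, were left out. Genes passed filterByExpr, libraries were TMM-scaled, and groups were compared with the robust quasi-likelihood test of edgeR 4.0.16 (R 4.3.3) with Benjamini-Hochberg adjustment. Region shares used log2 odds (pseudocount 0.5) in limma 3.58.1, for genes whose opposite-strand reads were at most 10% of those on the stretch. Symbols were found for all 6 genes and all 99 other listed names in a table that held 61481 of 78932 identifiers.

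Members and lists were chosen with earlier results of these data known. Named were the 6 genes, the CFIm subunits, each list's highest and lowest member, genes of the ratios, the closest genes by correlation, and overlapping or next downstream genes; other list members were named after their values were seen. A few genes that this rule names are not reported here. On simulated counts edgeR recovered 48.4%, 84.1% and 100% of 64, 63 and 66 genes changed by 0.5, 1 and 2 on the log2 scale. The simulation held 12407 genes, the others unchanged, and gave 7 false calls. In the data 57.9% of tested genes passed, so these recovery rates are not those of the real comparison. In the region test 92.5% and 100% of genes changed by 1 and 2 were recovered among 786, with 5 false calls. That simulation used the same fixed spread between libraries for all genes, so its rates too may not be those of the real comparison. Pairs within a group differed by 1.82 to 5.09 times sampling noise (chi-square over degrees of freedom). Replicate numbers are shared by both groups, and deviations of same-numbered libraries correlated at 0.131, -0.0176, 0.0232 and 0.034 for replicates 1 to 4. The largest correlations with a library of another number were 0.0192, 0.0769, 0.0112 and 0.0433. The same-numbered value was thus the larger in replicates 1 and 3 only, and same-numbered libraries were not taken as pairs. DESeq2 1.42.0, limma-voom, scaling by RLE or library size, other filters, both strands, a replicate block, non-robust dispersions and leaving out each library were tried as alternatives; the region shares and their alternatives were chosen after seeing the data.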

Additional observations from a re-analysis of the deposited data

Results flagged for a closer look

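Groups of 4 libraries were checked for a library that stands apart by Dixon's test (64 groups, of which chance gives about 1 in 20), and 3 had one. In PAK1, DMSO replicate 1 had 3.72% of reads on the stretch at the 5′ end, where the other DMSO libraries had 7.13%, 7.39% and 7.79%. The log2 ratio of PAK1 to PAK2 was -2.25 in dTAGV1 replicate 2 and between -1.91 and -1.88 in the other dTAGV1 libraries, in the direction of the group difference. RECK reached 36.3 CPM in dTAGV1 replicate 1, against 21.5, 22.7 and 22.7 CPM in the others.

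Reads on the strand opposite to CCND1 lie outside the gene-level comparison and averaged above the highest DMSO library. They numbered 2, 0, 1 and 6 with DMSO and 9, 10, 7 and 11 with dTAGV1, a mean of 9.25, and were too few to enter the test. LTO1 is transcribed on that strand over shared exons, and its part in these reads was not tested. The other 5 genes had at most 1 opposite-strand read in any library.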

How the results depend on the processing

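Of 553 alternative values for 37 results, 526 had the direction and call reported, or a count within 1.5 times it. For the 6 genes this held in 95 of 102 values. Calls of CCND1 (-0.81 to -0.41), VMA21 (0.40 to 0.55), PAK1 (-0.52 to -0.39) and PAK2 (0.18 to 0.27) held in all 17 alternatives each. TIMP2 turned to -0.934 with both strands counted together, which by construction leaves out its stretch, and ran from 0.0973 to 0.205 with single libraries left out. DICER1 passed at -0.233 with library-size scaling, -0.177 among genes averaging 100 counts and -0.188 with both strands, and ran from -0.19 to -0.15 without single libraries; the cause was not tested. Among genes averaging 100 counts 4120 of 6369 passed, fewer genes being tested. The replicate block gave 7434 genes and 4 of the 6, and changed no call of the 6. Requiring 50 reads on and off a stretch left 143 of 494 genes called. Without single libraries the ratios ran from -0.748 to -0.608 (PAK1 to PAK2), 0.447 to 0.625 (CCND1 to CCND3), -0.674 to -0.475 (TIMP2 to TIMP1) and 0.296 to 0.393 (DICER1 to DROSHA), and adjusted p reached 0.0571. Log2 odds of the stretch ran from -1.48 to -1.2 in CCND1 and 2.41 to 2.58 in TIMP2. Library-size scaling moved the median of all genes by -0.0747. It lowered the higher share of calls from 50.8% to 43.8%. TNRC6A was not called with library-size scaling, without a filter or without each of 3 libraries in turn, at edgeR adjusted p of 0.0528 to 0.0749.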

Other observations

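The stretches of CCND1 and TIMP2 can be placed beside those of other genes by their position in the 3′ UTR. Among genes with a single-exon 3′ UTR of at least 1000 bases and at least 100 bases of opposite-strand exon in it, 51 had the shared stretch in the downstream part of the UTR alone, CCND1 among them. Of these, 18 had a lower and 5 a higher share of reads on opposite-strand exons upon dTAGV1 (limma, adjusted p under 0.05). The median change in log2 odds was -0.21. In 45 genes the stretch lay in the upstream part alone, TIMP2 among them, and 1 had a lower and 15 a higher share, with a median of 0.12. In 122 genes it reached into both parts, and 29 were lower and 11 higher. Over all 833 genes of the region test, 14.4% had a lower and 12.7% a higher share. The parts were divided at the middle of the annotated UTR. This grouping was chosen after the values of CCND1 and TIMP2 were seen, so the counts are a description. The share covers reads on opposite-strand exons anywhere in a gene, so it may include reads outside the 3′ UTR. Among the genes so grouped, reads were matched to an opposite-strand gene only in CCND1 and TIMP2.

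All 6 genes have longer 3′ UTRs than the median tested gene, and gene-level change is given here by that length. With tested genes in 4 bins of nearly equal size by length, the bin of longest 3′ UTRs (2663 bases or more, 2650 genes) holds all of the 6 but PAK1, and in it 32.6% of genes were higher and 29.1% lower, with a median log2 fold change of 0.02. In the bin of shortest (507 bases or fewer, 2657 genes) 25.3% were higher and 30.6% lower, with a median of -0.03. Between these, the bin of 508 to 1279 bases had 25.8% higher and 34.1% lower with a median of -0.06, and that of 1280 to 2662 bases, which holds PAK1, had 29.8% higher and 30.2% lower with a median of -0.01, so the medians did not follow length steadily.

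Of the listed genes other than the 6, 8 had enough reads on a shared stretch, markers included. Of these 4 passed, 2 with a lower and 2 with a higher share. Over all 833 genes of the region test 27.1% passed, 14.4% with a lower and 12.7% with a higher share. The share rose in CDKN2A (log2 odds 0.86, limma adjusted p = 0.0439) and ATP6V1A (0.82, limma adjusted p = 0.0411), from 2.14% to 3.81% and from 2.56% to 4.44%. It fell in KRT8 by 0.65 in log2 odds (limma adjusted p = 0.0287), from 45.6% to 34.8%, and in GIT2, a scaffold that binds PAK-associated exchange factors. Its share on the stretch went from 56.7% ± 4.38 to 43.9% ± 6.82 (SD, n = 4 each), a change in log2 odds of -0.74 with a standard error of 0.20 (limma, Benjamini-Hochberg adjusted p = 0.00875), while its gene-level log2 fold change was -0.16 (edgeR, Benjamini-Hochberg adjusted p = 0.286). These 4 genes were named after their values were seen.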
